A study of Mus musculus with 2 samples.

Results

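Ccl6 and Ccl9 encode 2 CC chemokines, small secreted proteins that attract white blood cells, and they were taken by gene symbol as 2 of the 31053 features counted. Their transcripts were measured in single cells from the hypothalamic and thalamic region of CD1 mouse embryos at E15.5, sorted for surface Cd11b and Cd45, the proteins that mark myeloid cells. The control library pooled 10 embryos of 1 untreated wild-type dam. The stressed library pooled 5 embryos of 1 dam that had been placed at 4 °C for 30 min on each of 5 days, from E11.5 to E15.5. Both pools were CD1 embryos with no transgene, and each condition was 1 library, so no test between conditions was possible and no difference has a replicate check.

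The control library held 1156 barcodes and 2833015 unique molecular identifiers (UMIs, counted transcript molecules), and the stressed library 1467 barcodes and 6582188 UMIs. Median depth was 1948 UMIs per barcode for control and 3767 for stressed cells. The libraries had 13 barcode sequences in common, of which 0 control and 1 stressed barcode were kept as myeloid cells. Of the cells kept, 687 of 1068 control and 1140 of 1407 stressed cells were microglia-like by the marker genes of their clusters. The sort label of microglia therefore did not cover all cells: 219 and 177 cells were neural-like, 80 and 30 border-associated macrophage-like, and 32 and 27 monocyte or granulocyte-like. The pools also differed in sex, with 179 UMIs of Y-linked genes in the control microglia-like cells and 1 in the stressed ones. Levels are given as CPM, the UMIs of a gene scaled to the total of the summed group. All intervals are 95% intervals of counting error alone, which leave out differences between cells, embryos and litters.

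Ccl6 and Ccl9 belong to a branch of the CC family in rodents whose proteins carry a long amino-terminal stretch, and proteases of inflammatory sites can trim it to give more active chemokines. Both proteins signal through the receptor Ccr1, and both are made by cells of the myeloid lineage, among them macrophages, granulocytes and, for Ccl9, osteoclasts. In the brain, microglia are a known source of Ccl6.

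The genes are neighbours on the minus strand of chromosome 11 in GRCm38. Ccl9 (ENSMUSG00000019122) spans positions 83572919 to 83578636 and Ccl6 (ENSMUSG00000018927) positions 83587882 to 83593087, with starts 14451 bp apart. The main transcript of each has 4 exons, 1440 bases long for Ccl6 and 3006 for Ccl9. Ccl6 lies within E230016K23Rik, a noncoding gene on the opposite strand that is not among the features counted, and no exon of the main Ccl6 or Ccl9 transcript overlaps an exon of it. The transcripts share no stretch of 31 bases with each other, so reads of one were not confusable with the other at that length. Ccl9 shared 3.80% of its stretches of 31 bases with other genes, 1049 of them, and Ccl6 1.28% with 1 other gene. Of the shared stretches, 4 of Ccl9 and all 18 of Ccl6, which lay 142 to 159 bases from it, were within 500 bases of the transcript's end, where 3′ libraries draw most reads.

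The 120 bases before each start are shown because both genes were highest in the same microglial states (described after the sequences), and the stretches that the 2 promoters share are in capitals. They come from RefSeq (GRCm38.p6), at chr11:83593088-83593207 for Ccl6 and chr11:83578637-83578756 for Ccl9, and are written 5′ to 3′ on the minus strand.
Ccl6: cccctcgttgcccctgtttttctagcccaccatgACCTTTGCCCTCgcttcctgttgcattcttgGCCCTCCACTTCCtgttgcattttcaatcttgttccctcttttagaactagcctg
Ccl9: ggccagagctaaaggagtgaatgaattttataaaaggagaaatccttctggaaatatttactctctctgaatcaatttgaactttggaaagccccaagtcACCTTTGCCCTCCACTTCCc
The longest shared stretch, GCCCTCCACTTCC, was 13 bases long and began 55 bases before the Ccl6 start and 14 before the Ccl9 start. The other, ACCTTTGCCCTC, began 86 and 20 bases before the starts, so that in Ccl9 the stretches run into one another. The shared stretch contains ACTTCC, which read on the opposite strand is GGAAGT, the core recognised by ETS factors, the family of the myeloid regulator PU.1. It occurred on either strand in 19.7% of 32851 promoter windows of 250 bases. In the full windows of 250 bases, the AP-1 motif TGANTCA occurred once in Ccl9, 53 bases before the start, and not in Ccl6 (6.75% of windows). TATAAA had 3 matches on either strand in Ccl9 and 0 in Ccl6 (12.4% of windows). The nearest began 92 bases before the Ccl9 start and overlapped a match on the opposite strand, which began 94 bases before that start. The longer PU.1 motif GAGGAAGT (2.44% of windows), the C/EBP motif TTGCNNAA, the E-box CACGTG, the STAT motif TTCNNNGAA and an IRF motif matched neither window. These matches describe the letters of the windows and say nothing of binding.

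The first comparison asked which of the sorted cells carried the transcripts. Both were found in all 3 myeloid classes and were far lower in neural-like cells, which served as the background of the droplets. Ccl6 stood at 239 CPM in control microglia-like cells (432 UMIs, interval 217 to 263) and at 176 CPM in stressed ones (905 UMIs, 165 to 188). Ccl9 stood at 268 CPM (485 UMIs, 245 to 293) and 177 CPM (909 UMIs, 166 to 189). Neural-like cells had 1 Ccl6 UMI in the control library, or 2.17 CPM, and 4 Ccl9 UMIs, or 8.69 CPM.

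The neural-like background of the stressed library was higher for Ccl6, at 25.8 CPM (20 UMIs, of which 9 were in 1 cell), and was 12.9 CPM for Ccl9 (10 UMIs). When classed one by one from marker UMIs, 2 of the 219 control and 18 of the 177 stressed neural-like cells were microglia-like. The summed microglia markers in the neural-like cells were 293 CPM in the control and 1333 CPM in the stressed library. The part of these cells and markers in the background values was not tested. Microglia-like cells exceeded the neural-like cells 6.83-fold for Ccl6 (4.40 to 11.2) and 13.7-fold for Ccl9 (7.43 to 28.7) in the stressed library. In the control library the ratio was 30.9-fold for Ccl9 (12.0 to 114) and rested on 1 neural-like UMI for Ccl6, at 110-fold (19.7 to 4359). Over all genes of at least 50 CPM, 20.5% for control and 17.2% for stressed cells were at least 2 times higher in microglia-like than in neural-like cells.

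Most microglia-like cells gave no UMI of either gene. Ccl6 was detected in 31.1% of control cells (214 of 687) and 35.3% of stressed cells (402 of 1140), and Ccl9 in 34.2% and 36.2%. Because the stressed cells were deeper (medians of 2200 and 3922 UMIs), each cell was also thinned to 1100 UMIs, which left out 52 control and 5 stressed cells. Ccl6 was then found in 16.7% of control cells (106 of 635, 13.9 to 19.8%) and 13.7% of stressed cells (155 of 1135, 11.7 to 15.8%). Ccl9 was found in 19.7% (16.7 to 23%) and 13.7% (11.8 to 15.9%). The order of the libraries thus turned once depth was equal, and the Ccl9 intervals did not overlap while the Ccl6 intervals did. In neural-like cells thinned alike, Ccl6 was found in 0 of 173 control cells, which allows a share of up to 1.73%, and in 0.610% of stressed cells. Ccl9 was found there in 0.578% of control cells and in 0 of 164 stressed cells, which allows up to 1.83%.

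A minority of cells held most of the molecules. In the control microglia-like cells, the 44 cells with at least 3 Ccl6 UMIs held 51.2% of all Ccl6 UMIs, and the 60 cells with at least 3 Ccl9 UMIs held 55.7% of those of Ccl9. Among stressed cells, 106 held 57.5% of Ccl6 and 111 held 56.4% of Ccl9. The highest counts in a microglia-like cell were 13 Ccl6 UMIs in both libraries, and 14 and 16 for Ccl9. Counting intervals treat these molecules as independent and are therefore too narrow where cells differ this much.

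Joint detection of the genes in a cell was close to what their separate frequencies give. After thinning, 24 of 635 control microglia-like cells had both transcripts, where 20.9 would be expected if they were independent, and 28 of 1135 stressed cells had both, where 21.3 would be expected. Ccl6 was found in 19.2% of control cells with Ccl9 (12.7 to 27.2%) and in 16.1% of those without (13 to 19.6%). The stressed shares were 17.9% (12.3 to 24.9%) and 13% (10.9 to 15.2%). The intervals overlap in both libraries, so no joint detection beyond counting error was detectable at this depth. Neither transcript was found in 67.4% of control and 75.1% of stressed cells.

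The next comparison asked how the genes were distributed over microglial states. Clustering was run with Ccl6 and Ccl9 left out, and the microglia-like cells fell into 4 clusters. A resting-type cluster was led by Tmem119 and P2ry12 (284 control and 469 stressed cells), and a cycling one by Mki67 and Top2a, genes of dividing cells (111 and 222). A cluster led by the chemokine gene Ccl3 (203 and 317) is called Ccl3-led, and one led by Spp1, Gpnmb and Fabp5, genes of activated microglia, is called Spp1-high (89 and 132). Ccl4 and Ccl3 were also among the leading genes of the Spp1-high cluster. Ccl3 stood at 730 CPM in control and 1261 CPM in stressed Spp1-high cells, against 638 and 653 CPM in Ccl3-led cells. Ccl4 stood at 500 and 901 CPM against 433 and 230 CPM. The control intervals overlapped for both genes. The name Ccl3-led thus does not mark the state with the highest Ccl3 level. Ccl6 and Ccl9 were both highest in the Spp1-high and Ccl3-led states and lowest in the resting-type and cycling states. The states were drawn from these same cells, so their differences are described and not tested.

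Ccl6 in the control library stood at 153 CPM in resting-type (120 to 192), 154 CPM in cycling (116 to 199), 281 CPM in Ccl3-led (238 to 329) and 365 CPM in Spp1-high microglia (309 to 429). Stressed levels were 135 CPM (116 to 155), 120 CPM (102 to 140), 228 CPM (205 to 254) and 229 CPM (200 to 261) in the same order. Resting-type and cycling cells did not differ beyond counting error in either library, and Ccl3-led and Spp1-high cells did not in the stressed one. Against resting-type cells, Spp1-high cells were 2.38-fold higher in the control (1.79 to 3.19) and 1.70-fold in the stressed library (1.40 to 2.08). Ccl3-led cells were 1.83-fold (1.38 to 2.45) and 1.70-fold higher (1.41 to 2.04).

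Ccl9 had its levels in the same order of states, with larger ratios to resting-type cells. In the control library it stood at 143 CPM in resting-type (111 to 181), 162 CPM in cycling (124 to 208), 362 CPM in Ccl3-led (313 to 417) and 392 CPM in Spp1-high microglia (334 to 458). In the stressed library the levels were 107 CPM (90.9 to 126), 103 CPM (85.8 to 122), 205 CPM (182 to 229) and 330 CPM (295 to 368). Spp1-high cells were 2.74-fold above resting-type cells in the control (2.06 to 3.69) and 3.08-fold in the stressed library (2.53 to 3.76), and Ccl3-led cells 2.54-fold (1.92 to 3.38) and 1.91-fold (1.56 to 2.33). Only in the stressed library were Ccl9 levels of the Spp1-high cells above those of the Ccl3-led cells beyond counting error, 1.61-fold (1.38 to 1.89) against 1.08-fold in the control (0.872 to 1.34). The corresponding Ccl6 ratios were 1.01-fold (0.846 to 1.19) and 1.30-fold (1.03 to 1.64).

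Past 2 times in Spp1-high over resting-type cells were both genes in the control library and Ccl9 in the stressed one, where 7.84% and 7.58% of all genes of at least 50 CPM were as much higher. In Ccl3-led over resting-type cells only Ccl9 in the control passed, where 2.85% of genes did, and in the stressed library, where 1.87% did, neither passed. In cycling over resting-type cells neither passed in either direction, where 10.3% of genes for control and 9.66% for stressed cells were higher, and 4.37% and 1.86% lower. Depth differed between the states, and median UMIs per cell were 1606, 2895, 2496 and 4378 in the control resting-type, cycling, Ccl3-led and Spp1-high cells. With every cell thinned to 1100 UMIs, Ccl6 was found in 12.0%, 8.41%, 21.3% and 29.2% of these control cells and Ccl9 in 10.3%, 12.1%, 29.9% and 31.5%. In the stressed library the thinned shares were 11.6%, 10.9%, 17.7% and 15.9% for Ccl6 and 8.37%, 7.27%, 19.2% and 30.3% for Ccl9.

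**Figure D1:**
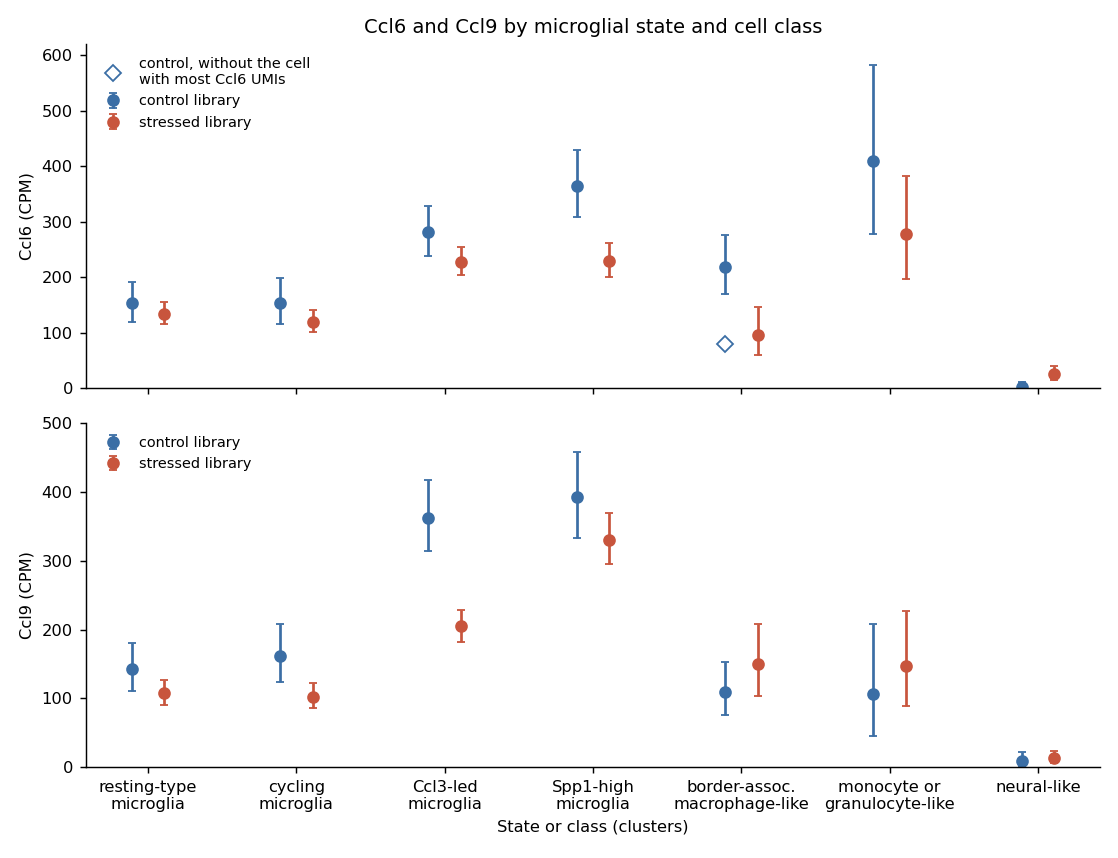
Levels of Ccl6 (top) and Ccl9 (bottom) in CPM by microglial state and cell class, in the control (blue) and stressed (red) library. Points are the summed levels, bars are exact Poisson intervals of counting error, and the open diamond is the control border-associated value without 1 cell with 44 Ccl6 UMIs. Both genes were higher in Ccl3-led and Spp1-high than in resting-type and cycling microglia. Ccl6 had its highest point in monocyte or granulocyte-like cells of both libraries, with intervals that overlap those of Spp1-high microglia.

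The same direction was seen when cells were divided by single genes rather than clusters. Ccl3, Ccl4 and Spp1 helped to draw the clusters, so these divisions are not independent of the states. Control microglia-like cells in which thinned UMIs of Ccl3 or Ccl4 were found (173 cells) had 345 CPM Ccl6, against 198 CPM in the other 462, a 1.74-fold difference (1.43 to 2.12). Their Ccl9 level was 424 against 211 CPM, 2.01-fold (1.67 to 2.41). For stressed cells, Ccl6 was 243 against 152 CPM, 1.60-fold (1.39 to 1.84), and Ccl9 254 against 149 CPM, 1.70-fold (1.49 to 1.95). Ccl9 in the control passed 2 times, which 1.28% of genes did, and no other of these ratios did (0.729% of genes in the stressed library).

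Cells were also divided by Spp1, which encodes the secreted glycoprotein osteopontin, and the ratios were larger for Ccl9 than for Ccl6. Ccl9 stood at 155 CPM in the 376 control cells without a Spp1 UMI and at 397 CPM in the 172 cells with the highest Spp1 share of their UMIs, 2.57-fold apart (2.06 to 3.22). The stressed levels were 116 and 263 CPM, 2.27-fold apart (1.95 to 2.63). Ccl6 stood at 170 and 307 CPM in the control (1.80-fold, 1.44 to 2.26) and at 161 and 210 CPM in the stressed library (1.31-fold, 1.13 to 1.51). Ccl9 passed 2 times in both libraries, which 4.15% and 2.24% of genes did, and Ccl6 in neither. Cells without a Spp1 UMI were shallower (median 1841 UMIs in the control, against 3609), and the part of depth in these ratios was not tested.

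The balance of the genes was followed as the Ccl9 share of the UMIs of both, which does not depend on the total of a group. It was 52.9% in control (49.6 to 56.2%) and 50.1% in stressed microglia-like cells (47.8 to 52.4%). Among control states it was 48.3% in resting-type, 51.3% in cycling, 56.4% in Ccl3-led and 51.8% in Spp1-high cells, with overlapping intervals. Among stressed states it was 44.4% in resting-type (39.0 to 49.9%), 46.1% in cycling (40.2 to 52.1%), 47.3% in Ccl3-led (43.4 to 51.2%) and 59.0% in Spp1-high cells (54.8 to 63.2%). The stressed Spp1-high cells thus stood above the other 3 states of their library. Cells without Spp1 and those highest in it differed in the same direction in both libraries. In the control the shares were 47.6% (41.2 to 54.0%) and 56.4% (51.8 to 60.9%), with overlapping intervals. In the stressed library they were 42.0% (38.2 to 45.8%) and 55.6% (52.2 to 58.9%). Among the myeloid groups of each library the monocyte or granulocyte-like cells had the lowest share, 20.5% (9.30 to 36.5%) and 34.5% (22.5 to 48.1%), though with intervals that overlap those of some other groups. Border-associated macrophage-like cells of the stressed library had a share as high as the Spp1-high cells, 60.7% (46.8 to 73.5%). In the control their share was 33.3% (24.3 to 43.4%), or 53.8% (39.5 to 67.8%) without the cell of 44 Ccl6 UMIs.

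**Figure D2:**
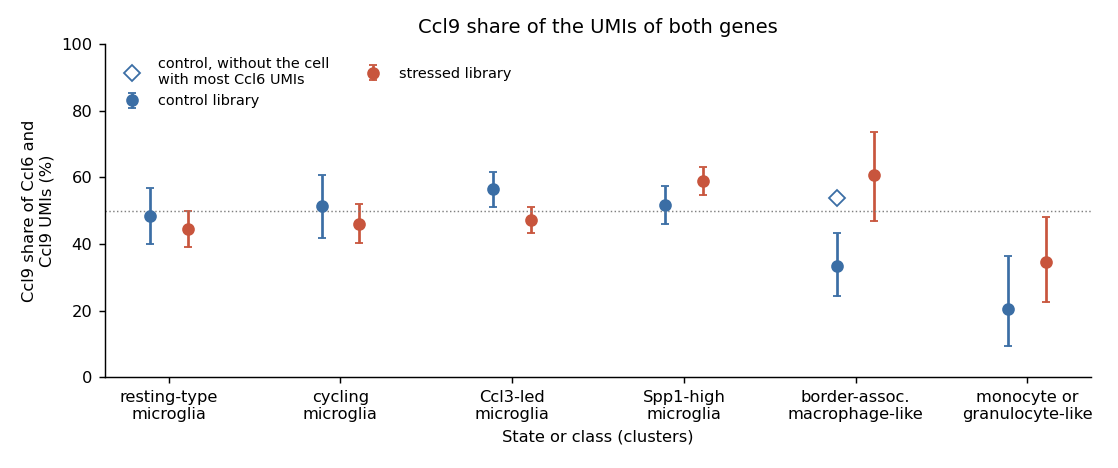
Ccl9 share, in percent, of the summed UMIs of Ccl6 and Ccl9 by state and class in the control (blue) and stressed (red) library, with exact binomial intervals. The dotted line marks equal counts and the open diamond the control border-associated share without the cell of 44 Ccl6 UMIs. The share was 59.0% in stressed Spp1-high microglia, 60.7% in stressed border-associated cells, and 20.5% and 34.5% in the monocyte or granulocyte-like cells.

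Among the other myeloid classes, Ccl6 and Ccl9 differed in where they were high. Monocyte or granulocyte-like cells had S100a8, S100a9, Camp and Plac8 among their leading genes over both libraries together. Camp had no UMI in the stressed cells, where 4 of 10 granulocyte markers had one, against 9 of 10 in the control. In this class, Ccl6 stood at 410 CPM in the control (31 UMIs, 278 to 581) and 279 CPM in the stressed library (38 UMIs, 197 to 382). It was 1.71-fold (1.15 to 2.47) and 1.58-fold (1.11 to 2.19) above microglia-like cells. Its intervals overlapped those of the Spp1-high microglia, 309 to 429 CPM in the control and 200 to 261 CPM in the stressed library. Ccl9 stood at 106 CPM (8 UMIs, 45.6 to 208) and 147 CPM (20 UMIs, 89.6 to 227), a ratio to microglia-like cells of 0.394 in the control (0.169 to 0.782) and 0.829 in the stressed library (0.504 to 1.29). The control Ccl9 value was the only one of these 4 past 2 times, in a comparison where 22.1% of genes were as much lower. For the stressed library, 14.0% of genes were at least 2 times higher and 15.7% lower, and in the control 16.3% were higher.

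This class was small and mixed. Granulocyte markers summed to 26884 CPM in its control and 5155 CPM in its stressed cells, and monocyte markers to 1823 and 2068 CPM. Divided by which list had more UMIs, Ccl6 stood at 477 CPM in 10 control cells led by granulocyte markers (9 UMIs, 218 to 906) and 349 CPM in 20 led by monocyte markers (18 UMIs, 207 to 551). The stressed levels were 233 CPM in 8 cells (120 to 406) and 320 CPM in 18 (209 to 469). These intervals overlap, so the data do not separate the kinds of cell. When cells were classed one by one from marker UMIs, the control Ccl6 log2 ratio to microglia-like cells was 0.035 in place of 0.78.

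Border-associated macrophage-like cells, the macrophages of the brain's surfaces and vessels, were led by Pf4, Lyve1, F13a1 and Mrc1. Their Ccl6 level was 218 CPM in the control (68 UMIs, 169 to 276) and 96.6 CPM in the stressed library (22 UMIs, 60.5 to 146). A single control cell held 44 of the 68 UMIs, and without it the control level was 79.2 CPM. That cell had 9113 UMIs, 6 Ccl9 UMIs, 14 UMIs of microglia markers and 3 of border-associated markers, and it was classed as microglia-like from its own markers. Its doublet score was at the 52.7th percentile of its library.

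With that cell, Ccl6 did not differ from microglia-like cells beyond counting error in the control (log2 ratio −0.13, −0.53 to 0.24), and without it the log2 ratio was −1.59 (−2.25 to −1.0). The stressed log2 ratio was −0.87 (−1.55 to −0.26). Ccl9 stood at 109 CPM in control (34 UMIs, 75.4 to 152) and 149 CPM in stressed border-associated cells (34 UMIs, 103 to 209). Its log2 ratio to microglia-like cells was −1.30 in the control (−1.85 to −0.80) and −0.24 in the stressed library (−0.78 to 0.25). Past 2 times was Ccl9 in the control, where 10.9% of genes were as much lower, and neither gene in the stressed library, where 6.55% were. The summed microglia markers in the 30 stressed cells were 3354 CPM against 1586 CPM in the 80 control cells, and border-associated markers 9150 against 13720 CPM. Their part in the ratios was not tested.

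The comparison of the pools asked whether the transcripts differed with maternal cold exposure. Both were lower in the stressed library in microglia-like cells. Ccl6 was 1.36-fold lower, with a log2 ratio of −0.44 (−0.61 to −0.27), and Ccl9 1.52-fold lower, with −0.60 (−0.76 to −0.44). Ccl9 was thus just past 1.5 times, as were 2.89% of 2663 genes in this direction, and Ccl6 was not. With TMM scaling the Ccl9 ratio was −0.52, under 1.5 times. Over these genes the log2 ratio had a median of −0.06. In cells with Xist and no Y-linked UMI, 228 control and 1056 stressed cells that are called female here, the values were −0.37 (−0.63 to −0.10) for Ccl6 and −0.60 (−0.84 to −0.35) for Ccl9. Treatment, litter and library cannot be told apart in these data.

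Both genes were lower in the stressed library in each of the 4 states, to different degrees. For Ccl6 the log2 ratio was −0.19 in resting-type (−0.58 to 0.22), −0.36 in cycling (−0.81 to 0.11), −0.30 in Ccl3-led (−0.58 to −0.01) and −0.67 in Spp1-high cells (−0.97 to −0.36). For Ccl9 it was −0.41 (−0.83 to 0.02), −0.66 (−1.11 to −0.19), −0.82 (−1.09 to −0.56) and −0.25 (−0.52 to 0.04) in the same order. Whether these ratios differ between states was not tested. Past 1.5 times lower were Ccl6 in Spp1-high cells (7.66% of genes), and Ccl9 in Ccl3-led (7.87%) and cycling cells (10.5%), but neither in resting-type cells (9.94%).

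The Ccl6 ratio of cycling cells moved with the clustering and the filter, to −0.90 (−1.23 to −0.57) at a Leiden resolution of 1.0 and −1.32 (−1.69 to −0.95) with a stricter filter (1000 genes or more per cell, mitochondrial share up to 5%), beside −0.64 and −0.61 in Spp1-high cells. The stricter filter placed the control cell with 44 Ccl6 UMIs among the cycling cells, and its part in that ratio was not tested. With cells thinned to equal depth, Ccl6 was at 0.31 in cycling (−0.74 to 1.46) and −1.17 in Spp1-high cells (−1.93 to −0.44). Thinned Ccl9 was at −1.18 in cycling (−2.13 to −0.24) and 0.02 in Spp1-high cells (−0.62 to 0.67). Among female cells, the Ccl6 log2 ratio of resting-type cells was 0.47 (−0.29 to 1.34) from 15 control UMIs, and that of Ccl9 in cycling cells was 0.45 (−0.52 to 1.61) from 9 control UMIs. The Ccl9 ratio of Ccl3-led cells was −0.91 there (−1.29 to −0.52). The states held similar parts of the microglia-like cells in both libraries: 41.3% and 41.1% were resting-type, 16.2% and 19.5% cycling, 29.5% and 27.8% Ccl3-led, and 13% and 11.6% Spp1-high. Summed markers of border-associated macrophages in microglia-like cells were 560 and 491 CPM, with Cd163 at 0 in both libraries. Monocyte markers were 27.1 and 23 CPM, with Ly6c2 and Chil3 at 0 in both, and granulocyte markers 12.7 and 5.83 CPM. Microglia markers were 7830 and 7985 CPM. The summed level of 9 genes of activated microglia, all with UMIs, was lower in stressed cells. It was 14665 and 8292 CPM in microglia-like, 5252 and 2647 CPM in resting-type, and 12323 and 6816 CPM in cycling cells. In Ccl3-led cells it was 13019 and 7198 CPM, and in Spp1-high cells 30257 and 19914 CPM. Ctsb alone, 1 of the 9, stood at 4883 and 2063 CPM in microglia-like and 3926 and 1452 CPM in resting-type cells. Its levels were 4058 and 1708 CPM in cycling, 5608 and 2333 CPM in Ccl3-led, and 5826 and 2986 CPM in Spp1-high cells. The sums do not show whether each of the genes was lower. The part of these markers in the ratios was not tested.

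Outside microglia the direction was not shared by both genes. In monocyte or granulocyte-like cells the log2 ratio was −0.56 for Ccl6 (−1.28 to 0.18) and 0.47 for Ccl9 (−0.77 to 1.87). In border-associated cells it was −1.17 for Ccl6 (−1.94 to −0.46), which became 0.29 (−0.62 to 1.18) without the cell of 44 UMIs, and 0.45 for Ccl9 (−0.27 to 1.18). Past 1.5 times was Ccl6 in border-associated cells, as were 13% of genes, and it did not pass without that cell. No other ratio of the 2 classes differed from 0 beyond counting error, and in monocyte or granulocyte-like cells 23.2% of genes were at least 1.5 times lower. Summed microglia markers in the latter were 370 CPM for control (8 of 12 genes with a UMI) and 1364 CPM for stressed cells (11 of 12), and border-associated markers 238 CPM (3 of 10) and 968 CPM (9 of 10). The part of these cells' markers in the ratios was not tested.

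**Figure D3:**
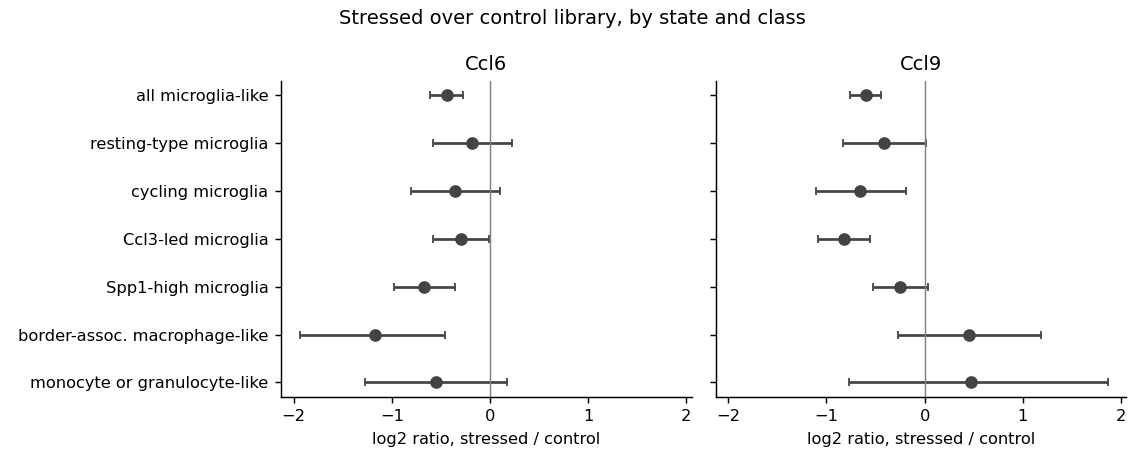
Log2 ratios of the stressed over the control library for Ccl6 (left) and Ccl9 (right) in all microglia-like cells, their 4 states and 2 other myeloid classes, with exact conditional intervals of counting error. All 5 microglial values lay below 0 for both genes, from −0.19 to −0.67 for Ccl6 and from −0.25 to −0.82 for Ccl9. The Ccl6 value of border-associated cells rested on 1 control cell.

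Ccr1, the receptor of both chemokines, was sparse and, among microglial states, highest in resting-type cells. It stood at 22.1 CPM in control (40 UMIs, 15.8 to 30.1) and 31.9 CPM in stressed microglia-like cells (164 UMIs, 27.2 to 37.2). In resting-type cells it was 44.9 and 50.8 CPM, in cycling cells 21.6 (8 UMIs) and 24.3 CPM, in Ccl3-led cells 7.44 (4 UMIs) and 22.2 CPM, and in Spp1-high cells 14.7 (6 UMIs) and 29.6 CPM. The intervals of resting-type and Spp1-high cells overlapped in both libraries. They were 28.1 to 68.0 and 5.39 to 32.0 CPM in the control, and 39.7 to 64.1 and 19.8 to 42.5 CPM in the stressed library. Against resting-type cells, the log2 ratio of Ccr1 was −2.59 in control Ccl3-led cells (−4.59 to −1.04) and −1.19 in stressed ones (−1.84 to −0.58). Cycling cells, which were low in Ccl6 and Ccl9, thus also lay below resting-type cells in Ccr1, with overlapping intervals in the control. It stood at 60.9 and 48.3 CPM in border-associated cells and at 39.6 (3 UMIs) and 80.7 CPM in monocyte or granulocyte-like cells, with intervals that overlap those of resting-type cells. Cx3cr1, the fractalkine receptor by which microglia sense neurons, was also higher in resting-type than in Spp1-high cells, at 1580 and 1626 against 652 and 896 CPM.

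The other CC chemokines did not move as 1 group. Of 17 such genes, 4 had at least 10 CPM in Spp1-high or resting-type control cells, of which 3 were at least 2 times higher in Spp1-high cells and 1 lower, with a median log2 ratio of 1.69 beside −0.06 over all 8007 genes so measured, of which 11.2% were higher and 16.3% lower. The higher ones were Ccl3, Ccl4 and Ccl2 and the lower one was Ccl12, which like Ccl2 attracts monocytes. Among stressed cells, 3 of 5 measured genes were higher and 1 lower, with a median of 3.44 beside 0.03 over 7633 genes, of which 8.69% were higher and 9.81% lower. Ccl3 stood at 147 and 116 CPM in resting-type and 730 and 1261 CPM in Spp1-high cells, and Ccl4 at 55.1 and 53.7 against 500 and 901 CPM. Ccl3, Ccl4 and Spp1 helped to draw the clusters, so these values describe the states. Ccl12 went the other way, from 235 and 155 CPM in resting-type to 31.8 and 43.9 CPM in Spp1-high cells.

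**Figure D4:**
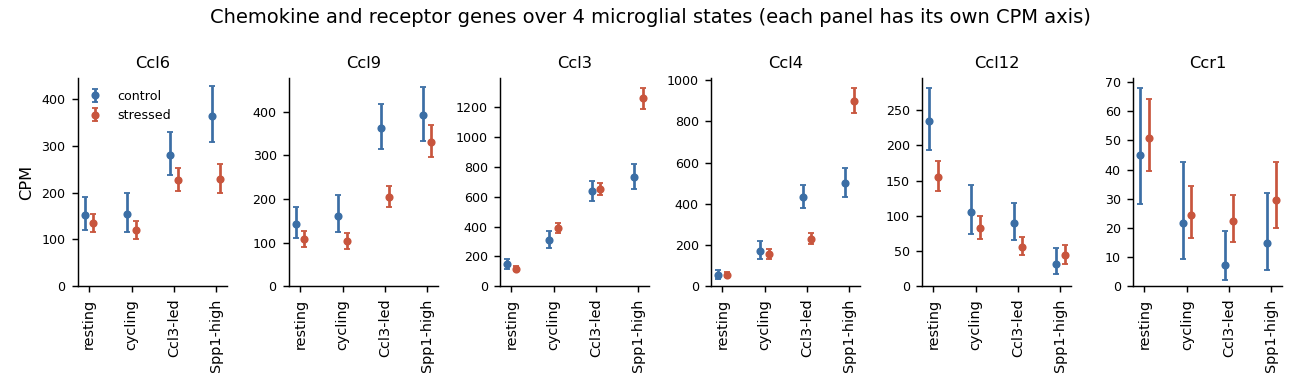
CPM of Ccl6, Ccl9, 3 other CC chemokines and the receptor gene Ccr1 in resting-type, cycling, Ccl3-led and Spp1-high microglia of the control (blue) and stressed (red) library, with exact Poisson intervals and a separate axis per gene. Ccl3 and Ccl4 had their highest points in Spp1-high cells, as Ccl6 and Ccl9 did, and Ccl12 and Ccr1 in resting-type cells. Stressed Ccl6 levels were nearly equal in Spp1-high (229 CPM) and Ccl3-led cells (228 CPM).

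Between the pools, 0 of 4 measured CC chemokines in microglia-like cells were 1.5 times higher and 1 was lower, Ccl2, with a median log2 ratio of −0.23 beside −0.08 over 7540 genes, of which 3.22% were higher and 7.31% lower. Ccl3 (0.28, 0.17 to 0.40) and Ccl4 (0.00, −0.15 to 0.14) did not share the lower level of Ccl6 and Ccl9. Ccl12, the remaining measured gene, was lower like Ccl6 and Ccl9, though by less than 1.5 times. It stood at 87.2 CPM in stressed (79.3 to 95.6) and 119 CPM in control cells (104 to 136). In Spp1-high cells, Ccl3 and Ccl4 were higher in the stressed library (log2 ratios of 0.79 and 0.85), where Ccl6 was lower. In Ccl3-led cells Ccl4 was lower (−0.91), as Ccl9 was, and Ccl3 was at 0.03. Of 4 chemokine receptors measured in microglia-like cells, 0 passed 1.5 times in either direction. Among the proteases, Ctsb, which encodes cathepsin B, was the 1 of 4 that was lower, at 2063 against 4883 CPM, and 1 of 22 myeloid regulators and cytokine receptors was lower and 0 higher, beside the same 3.22% higher and 7.31% lower over all genes. Spi1, which encodes PU.1, stood at 420 and 476 CPM.

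The neighbourhood of the genes was only partly used by these cells. Within 100 kb of either start, the annotation lists 12 genes, of which 7 were among the features counted. Both counts include Ccl6 and Ccl9 themselves. Ccl3 and Ccl4, 56.3 and 69.5 kb from the nearer member's start, were the other expressed chemokine genes. Ccl5, 48.1 kb away, had 0 UMIs in the microglia-like cells of both libraries, as had Heatr9.

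Over 12 sums, the 4 states and 2 other myeloid classes of both libraries, the genes most like each member were ranked by Pearson's r of log2(CPM + 10) among 4250 genes. The points share libraries and depth, so the values are descriptive. For Ccl9 they were Pfkl, a glycolytic enzyme gene (r = 0.93), Ostc (0.88), Bax (0.87), Hacd1 (0.87), Manf (0.85) and Ndufa1 (0.85). Ccl9 and Ccl3 had r = 0.73, Ccl9 and Spp1 0.67, and Ccl9 and Ccr1 −0.69. For Ccl6 they were Psme2 (0.91), Rala (0.87), Atox1 (0.87), Neat1 (0.87), Aprt (0.87) and Ppdpf (0.85). Ccl6 and Ccl3 had r = 0.00, and Ccl6 and Ccl9 0.42. Without the cell of 44 Ccl6 UMIs, Rala and Aprt stayed among the first 6 for Ccl6, led by Pgd (0.89), while Pfkl remained first for Ccl9 (0.93), and Ccl6 and Ccl9 had r = 0.55.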

How the data were processed

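Each condition was 1 droplet library (10x 3′, v3 chemistry, per the labels' protocols). The authors deposited raw UMI counts per gene and barcode, with software version 3.0.0 per the file headers. The build GRCm38.p5 (mm10) and the tools STAR, Cell Ranger 3.0.0 and Seurat 2.4 come from the submitters' processing notes, which as used here give no role for each.

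Barcodes under 500 genes (88 in the control, 48 in the stressed library) or over 10% mitochondrial UMIs (a further 0 and 12) were left out. The cells of the libraries were clustered jointly in scanpy 1.11.5, under Python 3.11.15 with igraph 0.11.9 (10000 counts per cell, log scale, 2000 variable genes without Ccl6, Ccl9 and sex-linked genes, 30 components, 15 neighbours, Leiden at resolution 0.5). Names were given to clusters from marker lists, by a scoring rule set after the data were seen. A cluster led by haemoglobin and vascular genes (50 and 33 cells) stayed unnamed. Cell names are rebuilt here and are not the authors'. Scrublet marked 2 control and 3 stressed cells, too few to be a working call, so doublets were kept and the highest 3.5% of scores were removed as an alternative.

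Counts were summed per class and library and divided by the class total (CPM). Sums have exact Poisson, ratios exact conditional and shares Clopper-Pearson intervals. A gene was past the fold at 1.5 times between libraries and 2 times between classes or states, beside all genes of at least 50 CPM. List members needed 10 CPM. For a share of 0, the limit given is 3 cells of the total. Ratios and thinning were checked on simulated counts. Ccl6, Ccl9 and Ccr1 were always named, lists by up to 4 members with the highest CPM, and likeness by the first 6 genes. Values named beyond that rule, and the division of the monocyte or granulocyte class, the cells without Spp1 and the values without 1 cell, were chosen after values were seen. The members and lists were chosen with earlier results of these data known. A few genes that these rules take are left out of the text. Positions are from GENCODE M21 and figures from matplotlib 3.10.9. Alternatives were a stricter filter (1000 genes, 5% mitochondrial UMIs), Leiden resolution 1.0, a per-cell marker gate, doublets removed, mean per-cell CPM, thinned cells, female cells, non-cycling cells, removal of the 1% of cells with most UMIs of the gene, edgeR 4.0.16 TMM factors and DESeq2 1.42.0 size factors.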

Additional observations from a re-analysis of the deposited data

How the results depend on the processing

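No paired analysis was possible because each condition was 1 library. In microglia-like cells the log2 ratio of stressed over control stayed below 0 for both genes under every alternative run. It was −0.36 for Ccl6 and −0.52 for Ccl9 with TMM or DESeq2 scaling, which brings Ccl9 under 1.5 times, and −0.91 and −0.78 with the stricter filter. The stricter filter gave neither a Ccl3-led state nor a monocyte or granulocyte-like class, so it gave no value for these. Under it, the Ccl6 log2 ratios in the control were −1.97 for border-associated over microglia-like, 1.82 for Spp1-high over resting-type and 1.59 for cycling over resting-type cells, and those of Ccl9 −0.48 for cycling over resting-type in the control and 1.31 for Spp1-high over resting-type in the stressed library. The Ccl6 ratio of border-associated over microglia-like control cells, −0.13 as reported, was −1.48 at resolution 1.0, −0.88 with the per-cell gate, −0.66 with mean per-cell CPM, −0.63 thinned, −1.04 in female cells, −1.38 without the top 1% of cells and −1.59 without the cell of most Ccl6 UMIs. The stressed value was −2.38 thinned. The Ccl6 ratio of stressed over control border-associated cells changed sign, to 0.57 at resolution 1.0, 0.23 with the stricter filter and 0.29 without that cell. With the per-cell gate, Ccl6 in monocyte or granulocyte-like over microglia-like control cells was 0.035. For cycling over resting-type control cells, Ccl6 was 0.54 at resolution 1.0, −0.57 thinned and 0.57 in female cells, and Ccl9 0.78 thinned and −1.25 in female cells. Thinned Ccl9 was 0.25 for border-associated over microglia-like and 2.22 for Spp1-high over resting-type stressed cells, and 1.88 in control and 1.45 in stressed Ccl3-led over resting-type cells. In female control cells Ccl6 was 1.68 for Spp1-high and 1.76 for Ccl3-led over resting-type, and Ccl9 1.00 for Spp1-high. Ccl9 of stressed over control cycling cells changed sign among female cells, to 0.45. Unthinned shares of cells with a UMI were 31.1% and 35.3% for Ccl6 and 34.2% and 36.2% for Ccl9. The share of genes 1.5 times lower was 4.93% at 20 CPM, 1.88% at 100 CPM and 26.7% with no minimum, and 6.66% were higher with no minimum. The stricter filter also placed the control cell with 44 Ccl6 UMIs among the cycling microglia-like cells, and its part in the ratios was not tested. Apart from the missing classes and lower counts named here, the cause of these changes was not tested.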
